A study of Mus musculus with 10 samples.

Results

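The MHC class I antigen presentation genes and the inducible subunits of the proteasome were described in hepatocytes in which Nrf2, p65 (a subunit of NF-κB), or both had been targeted. The set was chosen by gene symbol and comprises H2-K1, H2-D1, B2m, Tap1, Tap2, Tapbp, Psmb8, Psmb9, Psmb10, and Nlrc5. These are 10 of the 21939 genes in the deposited table, and all 10 were among the 13641 genes that passed the filter on low counts. RNA was sequenced from hepatocytes freshly isolated from 10 male mice, with 1 library per mouse. Their age is given as 8 to 9 weeks, without stating whether this was at virus injection or at isolation. Control mice were C57BL/6J animals without floxed alleles (n = 3), and the other mice carried floxed alleles of Nrf2 (Nrf2 KO, n = 2), of p65 (p65 KO, n = 2), or of both genes (DKO, n = 3). All mice of all 4 genotypes, including controls, had received AAV8Cre 12 days earlier, an adeno-associated virus in which the thyroxine-binding globulin promoter drives Cre recombinase in hepatocytes. Other liver cells therefore keep both genes, and the comparison with control asks how loss of either factor in hepatocytes affects the expression of these genes.

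MHC class I molecules display peptides from inside the cell to CD8 T cells and natural killer cells. The peptides are cut by the proteasome, pumped into the endoplasmic reticulum by the TAP transporter, and loaded onto a heavy chain paired with β2-microglobulin. Interferon gamma induces the whole pathway and replaces the catalytic subunits of the constitutive proteasome with those of the immunoproteasome. NLRC5 is a transactivator that acts at class I promoters, where binding sites for NF-κB and for interferon regulatory factors are also known. Hepatocytes express class I molecules at low to moderate surface levels in the resting liver, whereas Kupffer cells and sinusoidal endothelial cells express them strongly.

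The promoters of several of these genes are shown because they carry the letters that NF-κB and interferon-activated factors are known to read. RefSeq start sites (GRCm38.p6 table) were available for 8 of the 10 genes, without Tap2 and Nlrc5, and the 250 bases before each start were placed on GRCm39 by an exact match. Only the first listed RefSeq start of each gene was used. The windows of H2-D1, Tap1, Tapbp, Psmb8, and Psmb9 lie inside the annotated gene spans, as does most of the B2m window. For these genes an annotated start therefore lies further upstream, and the sequence before it was not searched. The windows lie at chr17:34219322-34219571 on the minus strand for H2-K1, chr17:35481820-35482069 on the plus strand for H2-D1, chr2:121977918-121978167 on the plus strand for B2m, chr17:34416919-34417168 on the plus strand for Psmb8, and chr17:34406280-34406529 on the plus strand for Tap1. Capitals mark matches to the κB consensus, to the interferon regulatory factor motif GAANNGAAA, and to the gamma-activated site TTCNNNGAA, searched on both strands.
H2-K1: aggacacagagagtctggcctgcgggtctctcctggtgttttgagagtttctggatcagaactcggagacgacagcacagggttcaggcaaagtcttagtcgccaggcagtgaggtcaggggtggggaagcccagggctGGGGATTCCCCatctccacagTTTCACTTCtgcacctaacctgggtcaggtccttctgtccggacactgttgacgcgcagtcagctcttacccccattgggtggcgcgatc
H2-D1: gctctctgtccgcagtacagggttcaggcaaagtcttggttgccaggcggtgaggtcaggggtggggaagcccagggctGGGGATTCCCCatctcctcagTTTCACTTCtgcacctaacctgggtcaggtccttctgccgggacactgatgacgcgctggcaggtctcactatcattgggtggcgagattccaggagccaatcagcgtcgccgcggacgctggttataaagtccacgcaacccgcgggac
B2m: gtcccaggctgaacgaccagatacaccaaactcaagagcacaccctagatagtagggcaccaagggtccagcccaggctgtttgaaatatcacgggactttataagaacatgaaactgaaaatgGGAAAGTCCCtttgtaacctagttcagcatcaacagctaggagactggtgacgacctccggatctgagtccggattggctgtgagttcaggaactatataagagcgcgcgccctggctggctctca
Psmb8: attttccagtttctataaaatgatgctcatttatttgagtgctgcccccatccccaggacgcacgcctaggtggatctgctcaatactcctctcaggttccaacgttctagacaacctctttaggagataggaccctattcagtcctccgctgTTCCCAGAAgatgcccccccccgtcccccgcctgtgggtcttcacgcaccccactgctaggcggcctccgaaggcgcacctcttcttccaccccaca
Tap1: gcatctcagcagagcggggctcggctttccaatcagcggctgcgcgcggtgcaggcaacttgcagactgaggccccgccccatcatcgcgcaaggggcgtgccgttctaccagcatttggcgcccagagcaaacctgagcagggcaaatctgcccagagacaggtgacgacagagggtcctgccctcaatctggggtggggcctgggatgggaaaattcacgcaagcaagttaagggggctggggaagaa
The κB consensus was found in the windows of H2-K1, H2-D1, and B2m, as in 3.75% of 27025 RefSeq promoters of the same length. In H2-K1 and H2-D1 it lay in the same run of letters, in which 2 matches overlap, and was followed by the GAANNGAAA motif on the opposite strand, which 6.34% of all promoters hold. TTCNNNGAA was found in Psmb8 only among the 8 windows (7.18% of all promoters). The core TGACG of the X2 box, a class I promoter element, was found in 5 of the 8 windows (17.9% of all promoters) and CCAAT in 6 (34.5%). The antioxidant response element motif TGACNNNGC, the type of sequence Nrf2 is known to bind, was found in H2-K1 only among these windows (10.1% of all promoters), where it shares 1 base with the TGACG match. The Tap1 window holds no capitals, and it overlaps the window of Psmb9 (chr17:34406305-34406554), which is read from the opposite strand. These matches describe letters and not binding, which was not measured.

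The libraries held between 33707165 and 49897382 estimated counts. Nfe2l2, the gene for Nrf2, and Rela, the gene for p65, were not called lower in the libraries labelled as their knockouts, and Nfe2l2 was called higher. Normalized counts of Rela were 1183 and 1209 in p65 KO against 1221 to 1276 in control, a log2 fold change of -0.07 (adjusted p = 0.765), and from 1034 to 1488 in DKO. Nfe2l2 rose by a log2 fold change of 1.21 in Nrf2 KO (adjusted p = 0.00488) and of 1.02 in DKO (adjusted p = 0.00347). Deleted exons could not be counted apart, so genotypes are those of the labels. The paper reports an efficient knockout in hepatocytes of mice treated in this way, by RT-qPCR and Western blot. It does not state whether the sequenced mice were among those tested. In its RNA sequencing, the paper also reports lower expression of classical Nrf2 target genes in Nrf2 KO and DKO hepatocytes. A normalized count is the estimated count of a gene divided by the TMM-scaled size of its library, relative to the mean size. The 11 hepatocyte markers summed to between 4010420 and 6432010 normalized counts in every library, a sum that does not show single markers. Of these markers, 2 were called higher than control in p65 KO and 2 in DKO, against 8.13% and 2.61% of all genes tested. They were Ass1, Cps1, and Hnf4a. In DKO 2 of the 11 were lower than in p65 KO, and none was called in Nrf2 KO. Summed markers of Kupffer cells and sinusoidal endothelial cells were higher in the p65 KO and DKO libraries than in control and are given with the results. Among the 3 DKO libraries, replicate 3 had the lowest normalized count in 10 of the 10 genes. The 10 genes varied together across libraries (median Pearson's r of 0.837 between them), so these are not 10 separate observations.

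In the p65 KO libraries, most of the class I genes and all 3 immunoproteasome subunits rose, and B2m and Tap2 did not pass the test. Of the 10 genes, 8 were higher than in control at an adjusted p of at most 0.05 in edgeR's quasi-likelihood test, as were 8.13% of all genes tested. Tap1, Psmb9, and Psmb10 also exceeded a log2 fold change of 1, a combination met by 5.05% of all genes. The 2 p65 KO libraries lay above all 3 control libraries in 10 of the 10 genes, which was the case for 26.2% of all genes. The median log2 fold change was 0.84, against 0.0009 over all genes tested. Without p65 KO replicate 1, which leaves a lone library assumed to vary like the other genotypes, 3 genes passed (Tap1, Psmb9, and Psmb10). Of the 5 calls lost, H2-K1, H2-D1, and Psmb8 then had log2 fold changes of 0.82, 0.91, and 0.89, Tapbp had 0.47, and Nlrc5 had 0.54. Without p65 KO replicate 2, 6 genes passed.

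In the DKO libraries fewer of these genes passed the test. Tap2, Psmb8, and Psmb9 were higher than in control, 3 of the 10 genes against 2.61% of all genes tested, and the median log2 fold change was 0.52 against 0.02. None passed both thresholds, by edgeR or by DESeq2, as did 1.36% of all genes, although 8 of the 10 genes had an unadjusted p under 0.05. All 3 DKO libraries lay above all control libraries in 6 genes, namely H2-K1, Tap1, Tap2, Psmb8, Psmb9, and Psmb10, against 13.2% of all genes. DKO replicate 3 fell inside the control range in 4 genes. Without DKO replicate 3, 6 genes passed the adjusted p, and without DKO replicate 1, DKO replicate 2, or any 1 control library none did.

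In the Nrf2 KO libraries no change was detected in edgeR. None of the 10 genes passed in either direction, against 0.726% of all genes, none had an unadjusted p under 0.05, and none passed in DESeq2. Log2 fold changes ranged from -0.17 for B2m to 0.33 for Tap2. Both Nrf2 KO libraries lay above all control libraries for Tap1, Tap2, and Psmb10, 3 of the 10 genes against 14.8% of all genes. The 3 comparisons with control share the same control libraries.

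**Figure D1:**
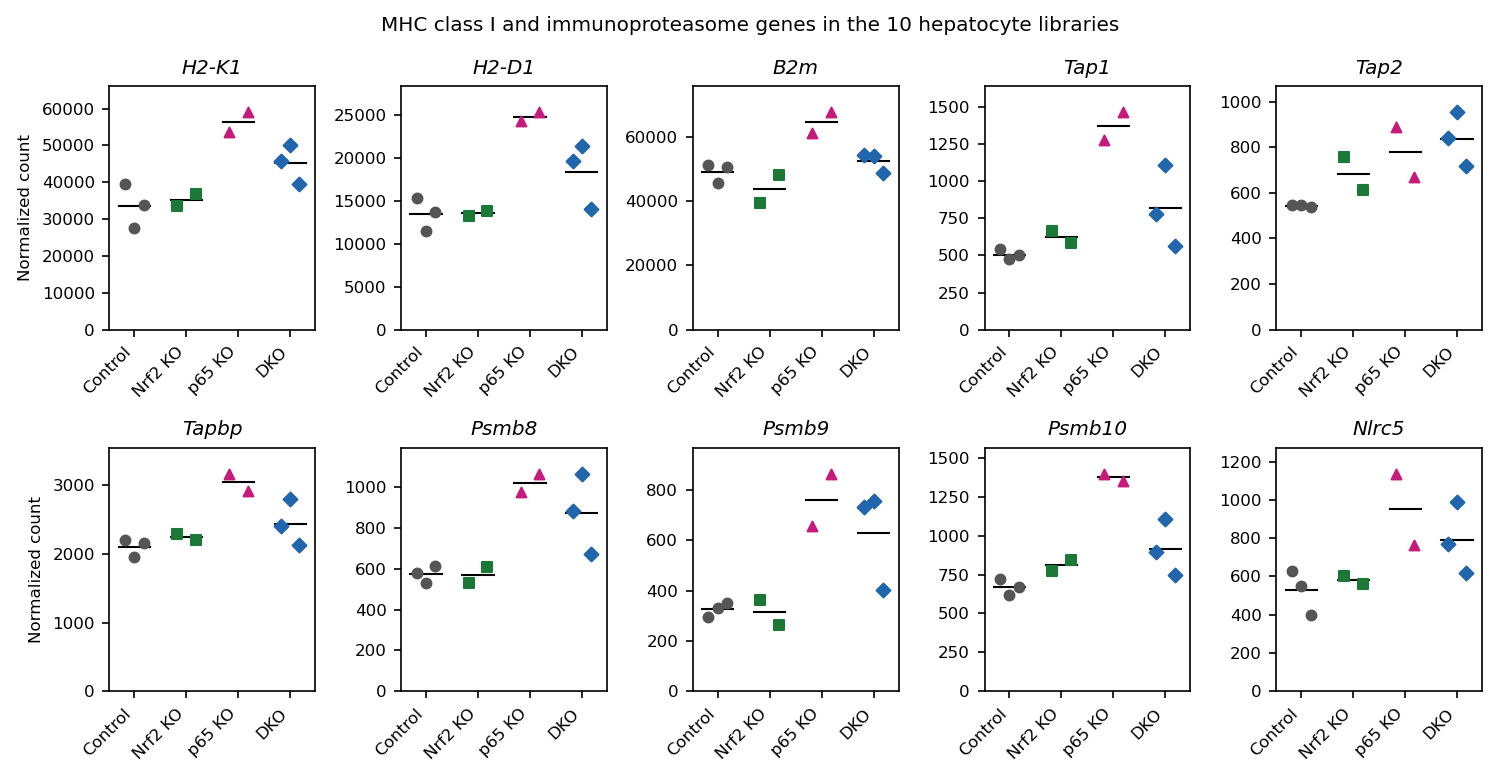
Normalized counts (y axes, linear from 0) of the 10 genes in each library, with the 4 genotypes on the x axes. Points are libraries (n = 3 Control, 2 Nrf2 KO, 2 p65 KO, 3 DKO) and lines are means. The p65 KO libraries lie above control in every panel, and DKO replicate 3 is the lowest DKO point in every panel.

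**Figure D2:**
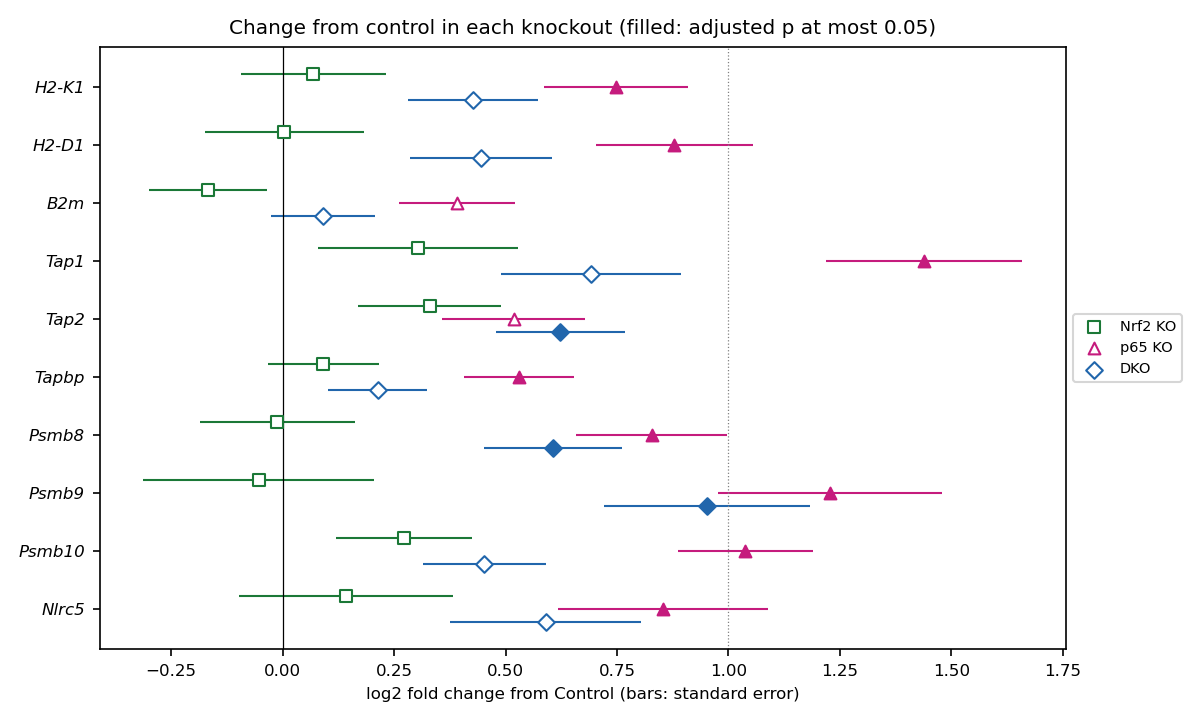
Log2 fold change from control (x axis) with its standard error for each gene (y axis) in Nrf2 KO, p65 KO, and DKO. Filled symbols mark an adjusted p of at most 0.05, which 8 genes had in p65 KO, 3 in DKO, and none in Nrf2 KO. The dotted line marks a log2 fold change of 1.

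H2-K1 and H2-D1, the classical heavy chains of C57BL/6 mice, present peptides to CD8 T cells. Gene positions are given on GRCm39. H2-K1 (chromosome 17 from 34214987 to 34219321, minus strand) had 39403, 27592, and 33699 normalized counts in control, 33628 and 36768 in Nrf2 KO, 53721 and 59026 in p65 KO, and 45794, 49982, and 39651 in DKO. Counts in p65 KO were the highest and did not overlap with any other genotype, and the lowest DKO library was close to the highest control library. In p65 KO the log2 fold change of H2-K1 was 0.75 ± 0.161 (SE, adjusted p = 0.0143), a 1.68-fold increase, and in DKO it was 0.43 ± 0.146 (SE, adjusted p = 0.115).

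H2-D1 (chromosome 17 from 35481691 to 35486475, plus strand) had 15346, 11538, and 13690 normalized counts in control, 13229 and 13902 in Nrf2 KO, 24346 and 25395 in p65 KO, and 19740, 21424, and 14098 in DKO. Again the p65 KO libraries lay above all others, while DKO replicate 3 fell among the control libraries. In log2 units the difference from control was 0.88 ± 0.175 (SE, adjusted p = 0.0106) in p65 KO and 0.45 ± 0.159 (SE, adjusted p = 0.132) in DKO. The transcripts of these heavy chains resemble each other, with 15.3% of the 31-base stretches of H2-K1 also found in H2-D1, so reads could have been divided between them. Their sum does not depend on division between these genes, but it can depend on division with others. H2-Q4 holds 10.8% of the stretches of H2-K1 and 8.7% of those of H2-D1. The sum amounted to 47089 ± 7814 normalized counts in the 3 control libraries (mean ± SD), to 81244 ± 4493 in the 2 of p65 KO, and to 63563 ± 8992 in the 3 of DKO. The sum was 1.73-fold higher in p65 KO than in control (two-sided exact permutation test, p = 0.1, the smallest that 3 against 2 libraries allow) and 1.35-fold higher in DKO (exact permutation test, p = 0.2). The H2-K1 to H2-D1 ratio was between 2.39 and 2.57 in control and 2.21 and 2.32 in p65 KO.

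B2m, which encodes β2-microglobulin, the light chain shared by all class I molecules, lies on chromosome 2 from 121977957 to 121983594. It had 51177, 45624, and 50609 normalized counts in control, 39550 and 47992 in Nrf2 KO, 61267 and 67665 in p65 KO, and 54350, 53874, and 48776 in DKO. Both p65 KO libraries were above every other library, and DKO overlapped with control. B2m had the smallest log2 fold change of the 10 genes in p65 KO, 0.39 ± 0.130 (SE, adjusted p = 0.0656), and also in DKO, 0.09 (adjusted p = 0.684). Both missed the threshold in edgeR, and with DESeq2 B2m passed in p65 KO.

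Tap1 and Tap2 encode the subunits of the peptide transporter and lie with Psmb8 and Psmb9 in a stretch of 34.9 kb within the MHC region, on chromosome 17 from 34400960 to 34435829. Tap1 (34405996 to 34416199) had 540, 476, and 501 normalized counts in control, 666 and 582 in Nrf2 KO, 1275 and 1465 in p65 KO, and 776, 1110, and 564 in DKO. Expression was highest in p65 KO without overlap, and the libraries of Nrf2 KO and DKO all lay above control. Its log2 fold change in p65 KO was 1.44 ± 0.220 (SE, adjusted p = 0.00336), a 2.71-fold increase and the largest of the 10 genes. In DKO it was 0.69 ± 0.202 (SE, adjusted p = 0.0744). When 1 library at a time was left out, Tap1 in DKO passed without DKO replicate 3 (0.90, adjusted p = 0.0147) and in none of the other 9 cases, where the adjusted p was between 0.0922 and 0.175.

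Tap2 (34422501 to 34435829) behaved differently from Tap1, its partner subunit, in that DKO had the highest mean. It had 546, 548, and 538 normalized counts in control, 755 and 613 in Nrf2 KO, 888 and 670 in p65 KO, and 842, 954, and 716 in DKO. All 7 knockout libraries lay above the narrow control range and overlapped among genotypes. The log2 fold change was 0.52 ± 0.160 (SE, adjusted p = 0.0522) in p65 KO, just outside the threshold, and 0.62 ± 0.145 (SE, adjusted p = 0.0328) in DKO. The difference between DKO and p65 KO, 0.10 ± 0.161 (SE, adjusted p = 0.734), was within the spread.

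Tapbp encodes tapasin, which bridges the transporter to empty heavy chains, and lies on chromosome 17 from 34134873 to 34148267. It had 2203, 1956, and 2164 normalized counts in control, 2288 and 2202 in Nrf2 KO, 3171 and 2919 in p65 KO, and 2400, 2795, and 2134 in DKO. No other genotype reached the p65 KO values, and DKO replicate 3 lay within the control range. In p65 KO the log2 difference from control was 0.53 ± 0.123 (SE, adjusted p = 0.0190) and in DKO 0.21 (adjusted p = 0.287). Tapbp shares 17.6% of its 31-base stretches with the overlapping gene Zbtb22, between which reads could have been divided.

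Among 7 other genes of peptide loading and trimming in the endoplasmic reticulum, 2 rose in p65 KO. They were Tapbpl, a tapasin-related peptide editor, with a log2 fold change of 0.53 (adjusted p = 0.0141), and Erap1, the aminopeptidase that trims peptides to length, with 0.69 (adjusted p = 0.0358). In DKO none of these genes passed in edgeR, none had an unadjusted p under 0.05, and Tapbpl and Erap1 had log2 fold changes of 0.14 and 0.12. Of 6 cytosolic peptidases, Lap3 fell in p65 KO by 0.35 on the log2 scale (adjusted p = 0.0430), and no other passed.

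Psmb8, Psmb9, and Psmb10 encode the catalytic subunits β5i, β1i, and β2i of the immunoproteasome. Psmb8 (chromosome 17 from 34416690 to 34420428) had 579, 531, and 612 normalized counts in control, 530 and 608 in Nrf2 KO, 974 and 1062 in p65 KO, and 882, 1066, and 674 in DKO. All libraries of p65 KO and DKO lay above control, and the highest was a DKO library. It changed by a log2 fold of 0.83 ± 0.170 (SE, adjusted p = 0.0119) in p65 KO and 0.61 ± 0.155 (SE, adjusted p = 0.0476) in DKO.

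Psmb9 (chromosome 17 from 34400960 to 34406738, head to head with Tap1) had 294, 332, and 349 normalized counts in control, 364 and 264 in Nrf2 KO, 658 and 865 in p65 KO, and 732, 754, and 402 in DKO. The p65 KO and DKO libraries lay above control, with DKO replicate 3 closest to it. The log2 fold change was 1.23 ± 0.251 (SE, adjusted p = 0.0116) in p65 KO and 0.95 ± 0.230 (SE, adjusted p = 0.0379) in DKO, the largest of the 10 genes in that genotype. The annotated spans of Psmb9 and Tap1 overlap on opposite strands, so reads from the overlap can be told apart only by strand.

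Psmb10 lies outside the MHC region, on chromosome 8 from 106662362 to 106665077. It had 720, 618, and 671 normalized counts in control, 771 and 845 in Nrf2 KO, 1399 and 1351 in p65 KO, and 894, 1104, and 749 in DKO. Every knockout library lay above control, and those of p65 KO lay above all others. The log2 fold change of Psmb10 in p65 KO was 1.04 ± 0.151 (SE, adjusted p = 0.00272), the lowest adjusted p of the 10 genes. In DKO it was 0.45 ± 0.138 (SE, adjusted p = 0.0851).

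The constitutive counterparts Psmb5, Psmb6, and Psmb7, whose products the immunoproteasome subunits replace, had negative log2 fold changes in p65 KO. Psmb5 fell in p65 KO by 0.60 ± 0.117 on the log2 scale (SE, adjusted p = 0.00964). However, it shares 52.1% of its 31-base stretches with other genes, among them the predicted gene Gm3375 (28.8%) and Osgep (15%). Psmb6 and Psmb7 had log2 fold changes of -0.36 (adjusted p = 0.0770) and -0.26 (adjusted p = 0.272). Of the 11 other subunits of the 20S core, Psma2, Psma6, and Psmb3 fell in p65 KO, by 0.55, 0.56, and 0.50 on the log2 scale, against 6.77% of all genes that were lower. All 11 had negative log2 fold changes (median -0.37, or -0.19 with library totals as the scale), and none passed without p65 KO replicate 1 (median -0.23) while 5 passed without p65 KO replicate 2 (median -0.52). In DKO none of these 11 genes passed in edgeR or DESeq2, 2 had an unadjusted p under 0.05, and the median was -0.23.

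The ratio of each inducible subunit to its counterpart within a library does not depend on scaling between libraries. For Psmb5 it can depend on how reads shared with other genes were divided. The ratio of Psmb8 to Psmb5 was 0.187, 0.194, and 0.214 in control, 0.210 and 0.224 in Nrf2 KO, 0.562 and 0.507 in p65 KO, and 0.379, 0.486, and 0.275 in DKO. The ratio of Psmb9 to Psmb6 was between 0.0723 and 0.104 in control, 0.250 and 0.294 in p65 KO, and between 0.118 and 0.243 in DKO. The ratio of Psmb10 to Psmb7 was between 0.121 and 0.142 in control, 0.375 and 0.289 in p65 KO, and between 0.168 and 0.292 in DKO. For each of the 3 ratios, the p65 KO and DKO libraries lay above control without overlap. On the log scale the ratios of Psmb8, Psmb9, and Psmb10 were 2.70-fold, 2.97-fold, and 2.46-fold higher in p65 KO than in control, and 1.87-fold, 2.01-fold, and 1.63-fold higher in DKO. Each of these differences had p = 0.1 in a two-sided exact permutation test, the smallest that 3 against 2 or 3 libraries allow, so these designs cannot reach 0.05. In Nrf2 KO the ratio of Psmb10 to Psmb7 was 0.160 and 0.165, above control, while the ratio of Psmb9 to Psmb6 overlapped with it.

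**Figure D3:**
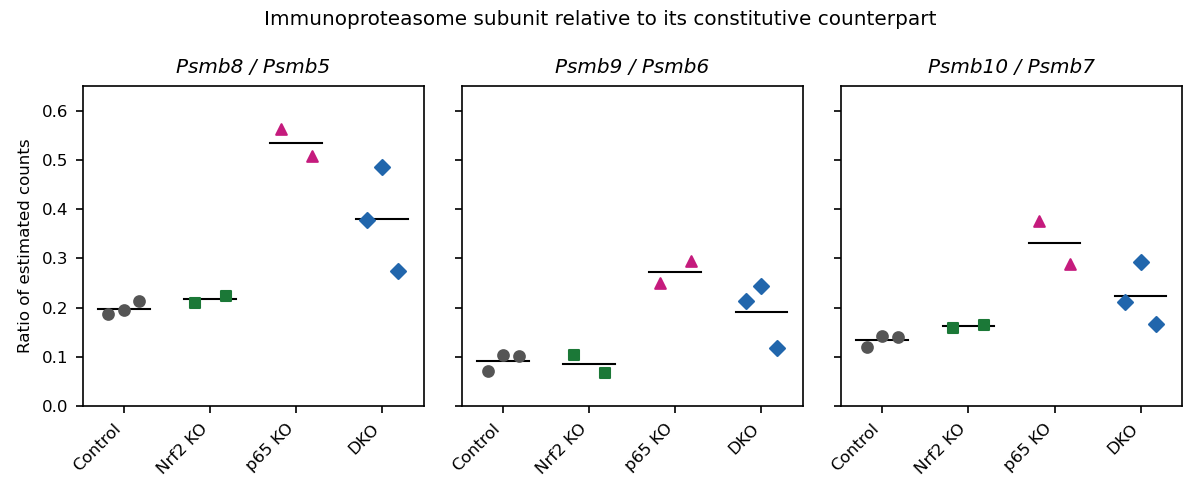
Ratio of estimated counts (y axis, linear from 0) of each immunoproteasome subunit to its constitutive counterpart in every library, by genotype (x axis). Points are libraries and lines are means, and the ratio of Psmb8 to Psmb5 was 0.562 and 0.507 in the p65 KO libraries against 0.187 to 0.214 in control.

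Nlrc5, the class I transactivator, lies on chromosome 8 from 95160984 to 95253900. It had 629, 551, and 399 normalized counts in control, 600 and 561 in Nrf2 KO, 1137 and 763 in p65 KO, and 770, 986, and 618 in DKO. The p65 KO libraries lay above control and overlapped with DKO, and DKO replicate 3 lay within the control range. The log2 fold change of Nlrc5 was 0.85 ± 0.236 (SE, adjusted p = 0.0361) in p65 KO and 0.59 ± 0.215 (SE, adjusted p = 0.138) in DKO. Of 9 other factors that act at MHC promoters, Ciita, the class II transactivator, rose in p65 KO, with 49.8 and 31.2 normalized counts against 0 to 2.80 in control (adjusted p = 0.00502). Rfxank, a subunit of the RFX complex that binds class I and class II promoters, fell in p65 KO by 1.68 on the log2 scale (adjusted p = 0.00978), with 319 and 164 normalized counts against 641 to 882 in control.

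Of 11 genes of interferon signalling tested, 3 rose in p65 KO, and in DKO 1 rose and 1 fell. Irf1, an interferon-induced activator of class I promoters, had 1334 and 1809 normalized counts in p65 KO, 978, 1107, and 785 in DKO, and between 620 and 819 in control, a log2 fold change of 1.19 ± 0.182 in p65 KO (SE, adjusted p = 0.00336). Irf8, which is known mainly from myeloid cells, rose in p65 KO and DKO, with log2 fold changes of 2.19 (adjusted p = 0.00369) and 1.25 (adjusted p = 0.0480). Ifngr2, a chain of the interferon gamma receptor, fell in DKO by 0.61 on the log2 scale (adjusted p = 0.0198), with between 381 and 471 normalized counts against 622 to 714 in control. Ifng itself had a count of 0 in all 10 libraries, which allows up to 3 counts in each.

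DKO and p65 KO were also compared directly. None of the 10 genes passed in edgeR in either direction, against 4.11% of all genes, although 5 had an unadjusted p under 0.05, all lower in DKO, and 2 passed with DESeq2. The smallest adjusted p was that of Psmb10, with a log2 difference of -0.59 ± 0.151 (SE, adjusted p = 0.0563), followed by Tap1 with -0.75 ± 0.219 (SE, adjusted p = 0.0821). All DKO libraries lay below both p65 KO libraries for 6 genes, H2-K1, H2-D1, B2m, Tap1, Tapbp, and Psmb10, as was the case for 20.1% of all genes. With library totals as the scale, which shifts the median gene by -0.27 in this comparison, 6 of the 10 genes were lower in DKO, as were 11.9% of all genes. Against Nrf2 KO none of the genes passed in DKO by edgeR, where 0.513% of all genes did, but 3 had an unadjusted p under 0.05 and 2 passed with DESeq2. Psmb9 differed most, with a log2 difference of 1.01 ± 0.263 (SE, adjusted p = 0.130).

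The interaction asks whether the loss of p65 changes these genes differently when Nrf2 is lost as well. No gene of the set passed this test in edgeR, against 0.469% of all genes, and 3 had an unadjusted p under 0.05, whereas 1 passed with DESeq2. All 10 estimates were negative, with a median of -0.40. Psmb10 had -0.86 ± 0.215 (SE, adjusted p = 0.125) and Tap1 had -1.05 ± 0.313 (SE, adjusted p = 0.194). In Psmb8 and Psmb9 it was -0.21 ± 0.243 (SE) and -0.22 ± 0.360 (SE).

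Other heavy chains and class I-like genes, 15 of them tested, were examined next to the classical ones. In p65 KO 5 rose and none fell (1 had a lower value at an unadjusted p under 0.05, and none fell with DESeq2). H2-T24, H2-Q6, H2-Q4, and H2-T22 had log2 fold changes of 2.00, 1.10, 0.98, and 0.90. In DKO H2-Q4, H2-Q6, and H2-Q7 rose, with 0.82, 0.84, and 0.79, and Hfe, which controls iron uptake and does not present peptides, fell by 0.71 on the log2 scale, where 2.84% of all genes were lower. Without p65 KO replicate 1 the count in p65 KO was 3. Between 38.2% and 48% of the 31-base stretches of H2-Q4, H2-Q6, H2-Q7, and H2-T22 are shared with other genes, so these changes cannot be assigned with certainty.

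H2-Q10, a heavy chain that hepatocytes secrete in large amounts, did not follow the classical heavy chains. It was named after its values were seen, and it had between 61919 and 71011 normalized counts in control, 51234 and 59390 in p65 KO, and between 64707 and 78618 in DKO. The p65 KO libraries were below control, with a log2 fold change of -0.29 ± 0.139 (SE, adjusted p = 0.175). Of the 31-base stretches of H2-Q10, 31.3% are shared with other genes, and 21.5% with H2-Q7, so reads could have been divided here too. Per kilobase of canonical transcript, the control mean was 45208 normalized counts for H2-Q10, 20732 for H2-K1, 6389 for H2-D1, and 45246 for B2m. On the same per-length scale in control, Tapbp had 708, Psmb10 510, Psmb8 337, Psmb9 240, Tap1 163, Tap2 137, and Nlrc5 69.5. The constitutive subunits Psmb5, Psmb6, and Psmb7 had per-length control levels of 1704, 3450, and 4338, far above their inducible counterparts. In p65 KO the per-length level of Psmb8 was 598 and that of Psmb5 was 1126.

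Genes that interferon gamma is known to induce were examined as a wider list. Of 17 tested, 11 rose in p65 KO, with a median log2 fold change of 1.92, and 12 with DESeq2. Tgtp2, Tgtp1, and Cd274 had log2 fold changes of 3.62, 3.41, and 2.31, and Gbp5 had 47.7 and 32.1 normalized counts against 0 to 0.934 in control. Tgtp1 and Tgtp2 encode interferon-induced GTPases, as Gbp5 does, and Cd274 encodes the T-cell inhibitory ligand PD-L1. In DKO none rose in edgeR, 4 were higher at an unadjusted p under 0.05, and 3 rose with DESeq2. Without DKO replicate 3, 4 of these genes rose in DKO. Cxcl9, which encodes a T-cell chemokine and was named after its values were seen, fell in DKO by 1.26 on the log2 scale. No gene of this list was called lower without Control replicate 1, Control replicate 3, DKO replicate 1, or DKO replicate 3. The same held with a replicate block and with only the compared genotypes in the fit. In p65 KO all 17 genes tested from this list, which include Cxcl9, had positive log2 fold changes. The paper lists Cxcl9 among chemokines that were upregulated in p65 KO and DKO mice. The direction found here differs from that statement in DKO only. The members of the class I set had a median of 0.52 in DKO, and the interferon gamma list had 0.47.

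**Figure D4:**
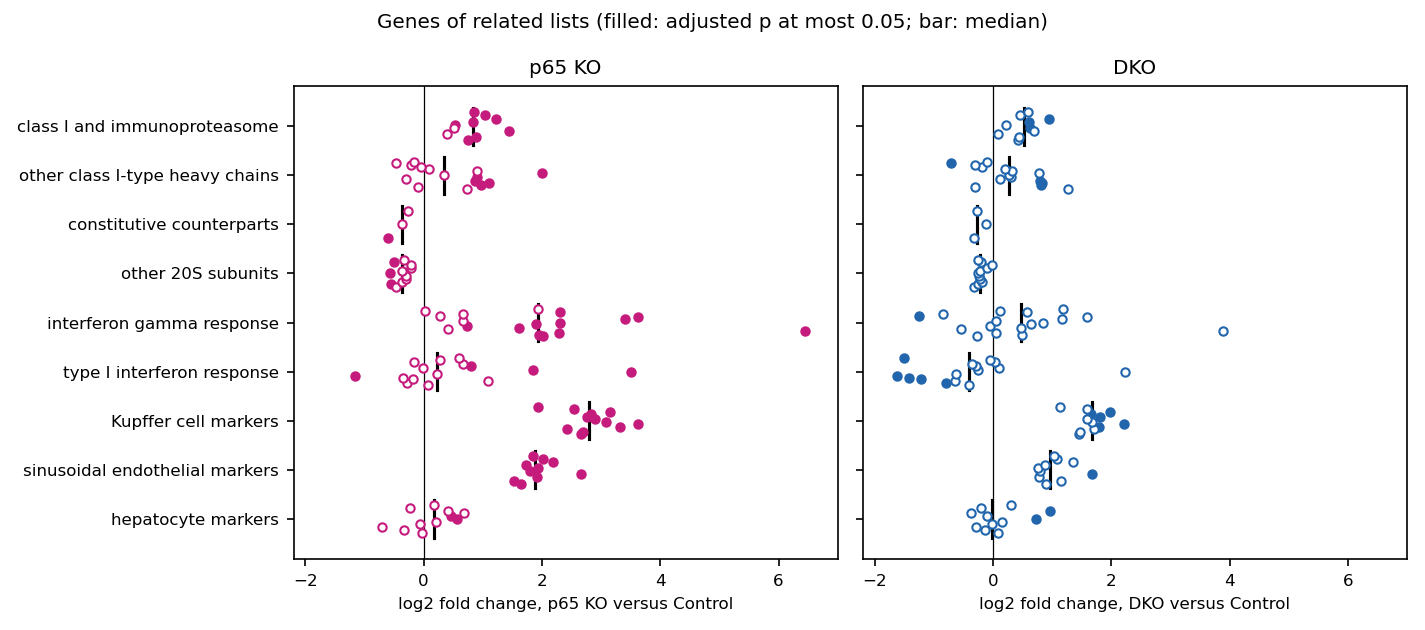
Log2 fold change from control (x axes) of single genes in 9 lists (y axis) in p65 KO and DKO, with filled points for an adjusted p of at most 0.05 and bars for the median of a list. The class I and immunoproteasome genes had medians of 0.84 in p65 KO and 0.52 in DKO, whereas the 11 other 20S subunits had -0.37 and -0.23.

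Markers of several other liver cell types rose in the same libraries, and those of others did not. Of 12 Kupffer cell markers, 12 rose in p65 KO (median log2 fold change 2.80) and 5 in DKO (1.67). Without p65 KO replicate 1 the count in p65 KO was 6 (median 2.64), and in DKO none passed in edgeR without DKO replicate 1 (median 1.38) or without Control replicate 1 (median 1.38), while DESeq2 called 8 with all libraries. All 12 had positive log2 fold changes in each of these fits. Their summed normalized counts were between 379 and 957 in control, 264 and 815 in Nrf2 KO, 4470 and 6083 in p65 KO, and between 1661 and 2924 in DKO, and no marker of this list was at 0 in all libraries. Marco, a scavenger receptor of Kupffer cells, had between 15.5 and 18.7 normalized counts in control and 262 and 165 in p65 KO. Of 10 markers of sinusoidal endothelial cells, 10 rose in p65 KO and 1 in DKO (6 with DESeq2), with sums between 734 and 1621 in control, 3899 and 5254 in p65 KO, and between 2120 and 2926 in DKO. Without p65 KO replicate 1, 1 of the endothelial markers passed in p65 KO, with a median of 1.72 against 1.88 with all libraries. None passed in DKO by edgeR without Control replicate 1, either p65 KO library, DKO replicate 1, or DKO replicate 2. Of 8 stellate cell markers 5 rose in p65 KO, and of 6 pan-leukocyte markers 5 rose, with pan-leukocyte sums between 37.5 and 164 in control, 485 and 789 in p65 KO, and between 145 and 266 in DKO. In p65 KO, 2 of 8 monocyte and dendritic cell markers and 1 of 4 neutrophil markers rose. None of 4 B cell or 3 cholangiocyte markers did, and B cell sums were 58.9 and 76.6 against 86.1 to 392 in control. All 5 erythroid markers had negative log2 fold changes in p65 KO and positive ones in DKO. None of these 5 passed in edgeR, and with DESeq2 3 were higher in DKO.

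Within p65 KO, replicate 1 had the higher Kupffer sum of 6083 and the higher counts of Tap2, Tapbp, Psmb10, and Nlrc5, and the other 6 genes were higher in replicate 2. Within DKO, replicate 1 had the highest Kupffer sum. DKO replicate 2 had the highest sums of endothelial (2926), stellate (737), and pan-leukocyte (266) markers, and the highest count in all 10 genes except B2m. Replicate 3 of DKO had the lowest sum of Kupffer markers, 1661, which was above every control library, and the lowest counts of the 10 genes. Of 6 T and NK cell markers tested, none was higher in p65 KO by edgeR, 1 had an unadjusted p under 0.05, and DESeq2, which gave an adjusted p for 3 of them, called none. In DKO 1 rose, Cd4, which was named by the same rule and had between 64.1 and 139 normalized counts against 14.0 to 34.4 in control (log2 fold change 1.96, adjusted p = 0.0229), and 3 had an unadjusted p under 0.05. Their sums were 39.6 and 38.8 in p65 KO, between 14.0 and 36.4 in control, and between 72.1 and 166 in DKO. The part of these other cells in the class I result was not tested, and in bulk RNA fewer cells of a type and less RNA per cell cannot be told apart.

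MHC class II genes, which resting hepatocytes do not usually express, rose in the same libraries, 6 of 8 in p65 KO and 5 of 8 in DKO. Cd74, the invariant chain of class II molecules, had between 55.2 and 112 normalized counts in control, 2146 and 1603 in p65 KO, and between 410 and 944 in DKO. Its log2 fold changes were 4.32 and 2.95, larger than those of any of the 10 class I and immunoproteasome genes.

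The 10 genes varied together across the libraries to different degrees. Across the 10 libraries, which share depth, processing, and genotype, Pearson's r of log2 normalized counts was highest for Psmb10 and Tap1 (0.976) and lowest for Tap2 and B2m (0.271). Among 10175 other genes that averaged 50 or more normalized counts, those most like the mean standardized profile of the 10 genes were Exoc3l2 (r = 0.964), Hrg (0.960), Prelp (0.955), Gvin2 (0.952), Igtp (0.946), Cyp2a4 (0.944), Esam (0.944), Sae1 (0.944), Casc3 (0.939), and Aqp11 (0.934). Hrg, which encodes the plasma protein histidine-rich glycoprotein made by hepatocytes, had 32262 and 31719 normalized counts in p65 KO against 21692 to 23884 in control. Igtp, an interferon-induced GTPase, had 4547 and 5581 against 861 to 1206, and Esam, an endothelial adhesion molecule, had 149 and 112 against 21.6 to 35.3. These genes were selected for their likeness to the profile, so their values are a description.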

How the data were processed

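RNA from freshly isolated mouse hepatocytes was sequenced, with 10 libraries in 4 genotypes. The authors deposited 1 table of estimated counts per gene, made with Salmon 1.10.3 according to the submitters' processing notes, which also name DESeq2 1.42.1, GRCm39, and GENCODE M33. The step from transcripts to genes is not given in the sources used here. The table is named as normalized, but its values are whole, library totals differ, and median-of-ratios factors ran from 0.879 to 1.26, so the deposited values were used as counts without rounding. Hepatocytes had been purified by perfusion and density centrifugation, and other liver cells can remain. Counting error is small at these depths for the 10 genes, and larger for genes with few counts, such as Gbp5 and Ciita. With 1 library per mouse, p-values measure the spread between libraries, in which mice and their cell isolation cannot be told apart.

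Genes with at least 10 counts summed over libraries were tested with edgeR 4.0.16 (R 4.3.3), using TMM scaling and a quasi-likelihood fit to all 4 genotypes without covariates. P-values were adjusted by Benjamini-Hochberg over all 13641 genes, with thresholds of 0.05 and, where stated, a log2 fold change of 1. The 10 genes and all lists were chosen with earlier results of these data known. Genes named were all 10 members, the deleted genes, the constitutive proteasome counterparts, Irf1 and Ciita, up to 4 called genes with the largest change in each other list, and the 10 genes with the most similar profile. H2-T10, H2-Bl, Mx2, Ddx58, and Tf were not matched in the table. Positions and transcript similarity (31-base stretches) were taken from GENCODE M39, in which 21926 of 21939 gene IDs were found. Alternatives were DESeq2 1.42.0, other filters and scalings, a replicate block, fits to the genotypes compared alone, and leaving out each library, and they were also applied to the lists after seeing the data. A gene that the naming rule also covers is not reported here.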

Additional observations from a re-analysis of the deposited data

Results flagged for a closer look

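None of the 10 class I and immunoproteasome genes passed the adjusted p in the interaction test, against 0.469% of all genes. All 10 estimates were negative, 3 had an unadjusted p under 0.05, and 1 gene passed with DESeq2. In the interferon lists 5 genes passed, 2 of 17 in the interferon gamma list and 3 of 15 in the type I list. All 5 had a lower DKO value than the separate knockouts would add up to. The test was edgeR's quasi-likelihood test with Benjamini-Hochberg adjustment over all genes. Gbp2 had an interaction of -2.56 on the log2 scale (adjusted p = 0.0459), with 170 and 181 normalized counts in p65 KO and between 26.3 and 52.7 in DKO. Irgm2 had -1.59 (adjusted p = 0.0325), with 5645 and 6009 in p65 KO and between 1767 and 3219 in DKO. Ifit3 had -1.77 (adjusted p = 0.0221), with 512 and 560 in Nrf2 KO and between 120 and 168 in DKO. Usp18 had -2.08 (adjusted p = 0.0106), with 675 and 756 in Nrf2 KO and between 260 and 333 in DKO. Ifi44 had -3.01 (adjusted p = 0.0106), with 161 and 238 in Nrf2 KO, 176 and 147 in p65 KO, and between 27.4 and 45.8 in DKO. Groups of 2 or 3 libraries are too small for a test of single outlying libraries.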

How the results depend on the processing

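The p65 KO and DKO log2 fold changes of the 10 genes kept their sign in 180 of 180 values each, over 18 alternatives. The number of genes past the adjusted p changed more. With DESeq2 it was 6 in DKO, 2 in DKO against p65 KO, 2 in DKO against Nrf2 KO, and 1 in the interaction, and without a filter it was 1 in DKO against p65 KO. With library totals as the scale, 6 genes passed both thresholds in p65 KO, none (0) passed in DKO, 6 were lower in DKO than in p65 KO, and 1 passed in the interaction, and this scale moved the median gene by 0.177 in p65 KO and -0.0936 in DKO. With only the genotypes compared in the fit, 1 gene passed in DKO. Leaving out each library in turn gave between 3 and 9 genes in p65 KO, 0 and 6 in DKO, 0 and 2 in DKO against p65 KO, 0 and 1 in DKO against Nrf2 KO, 0 and 2 in the interaction, and 0 and 1 past both thresholds in DKO. The cause was not tested, beyond the fewer libraries in these fits.

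Reversals occurred only in Nrf2 KO, where no gene was called. H2-D1 had -0.0050 with DESeq2 and with median-of-ratios scaling, and -0.0008 with a mean of at least 10 counts. Leaving out libraries, the Nrf2 KO log2 fold change ranged from -0.0982 to 0.1049 for H2-D1, from -0.0547 to 0.1997 for H2-K1, from -0.0286 to 0.2903 for Nlrc5, from -0.1149 to 0.0829 for Psmb8, and from -0.2996 to 0.1613 for Psmb9, and the log2 ratio of Psmb9 to Psmb6 ranged from -0.4181 to 0.2000.

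Replicate numbers did not pair the libraries, since the deviations of 13 same-numbered pairs correlated between -0.232 and 0.114. With a replicate block, 5 genes passed in p65 KO and 0 in DKO, and in Nrf2 KO H2-D1 and Nlrc5 had -0.0829 and -0.0135. Groups of 2 or 3 mice limit all of these counts.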

Other observations

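Genes that type I interferon is known to induce were described as a further list. Of 15 tested, Oas2, Oasl2, and Usp18 rose in p65 KO and Rsad2 fell, whereas in DKO 5 fell and none rose by edgeR, with 1 higher at an unadjusted p under 0.05 and 1 higher with DESeq2. In Nrf2 KO Usp18, a deubiquitinase-like regulator of interferon signalling, rose by a log2 fold change of 1.00 (adjusted p = 0.0424), 6 of the 15 were higher at an unadjusted p under 0.05, DESeq2 called 3 higher, and 14 had positive log2 fold changes. Oasl2, an oligoadenylate synthetase-like protein, had 122 and 87.0 normalized counts in p65 KO against 22.6 to 36.4 in control, a log2 fold change of 1.85 ± 0.405 (SE, adjusted p = 0.0155). Rsad2, which encodes the antiviral protein viperin, had 208 and 166 in p65 KO, between 119 and 165 in DKO, and between 272 and 531 in control. It fell by 1.17 on the log2 scale in p65 KO (adjusted p = 0.0184) and by 1.62 in DKO (adjusted p = 0.00461). Ifi44 had between 27.4 and 45.8 in DKO against 87.5 to 123 in control, and fell by 1.51 (adjusted p = 0.0110). None of the 15 passed in p65 KO without p65 KO replicate 1, and 3 fell in DKO without DKO replicate 1 or without DKO replicate 3.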
